A study of Mus musculus with 6 samples.

Results

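The genes described here were the corticosteroid receptors Nr3c1 and Nr3c2, the glucocorticoid-activating enzyme Hsd11b1, and Fkbp5, Tsc22d3, Sgk1, Zbtb16, Hif3a, Pdk4 and Plin4, genes known to be induced by glucocorticoids. They were taken by gene name from a table of 41386 genes, and all 10 were found. RNA-seq was performed on hippocampi of C57BL/6 mice (C57BL/6J in the study's methods) aged 56 days, in 3 libraries from mice whose middle cerebral artery was blocked for 1.5 h, followed by 24 h of reperfusion (I/R), and 3 libraries from sham-operated mice. In the model, a filament blocks the artery that feeds one side of the brain and is then withdrawn, and the sham mice had the surgery without the filament. Per the study's methods, the hippocampi came from the side of the occlusion and several were pooled in each library, so that the spread given here is between pools and not between single mice. The libraries held 37493042 to 44788547 counts.

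Glucocorticoids (corticosterone in mice) are adrenal hormones that rise under stress. In the cell the hormone binds 2 related receptors, the glucocorticoid receptor and the mineralocorticoid receptor, and the mineralocorticoid receptor has the higher affinity and is abundant in hippocampal neurons. The unbound receptor is held by a chaperone complex around Hsp90, and after binding the hormone it enters the nucleus and binds DNA at the glucocorticoid response element, a pair of inverted half-sites spaced by 3 bases, from which it raises or lowers transcription of nearby genes.

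The response element is shown first because the only full match to it in the promoter windows of the 10 genes lay before Sgk1. Sgk1 was among the genes that rose, as were Pdk4 and Plin4, whose windows held no match. Promoter windows of 300 bases (250 before and 50 after a start site) were taken from RefSeq on GRCm38.p6. Of the 10 genes, 8 had an entry, with 15 windows in all. The half-site AGAACA, on either strand, was in 4 of these windows, of Tsc22d3 and Sgk1 only. These genes also had the most windows, 3 for Tsc22d3 and 6 for Sgk1, against 1 for each other gene with an entry. Of all 32851 RefSeq windows of this length, 19.0% held the half-site. The full palindrome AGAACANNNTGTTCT, which reads the same on both strands and contains 2 half-sites, was in 3 windows of all (0.00913%), and 1 of them was of Sgk1. A looser form, GNACANNNTGTNC, which overlaps the full one, was in 0.475% of windows and, among the 15, in that same window. The sequences below are the 250 bases before the fifth listed start site of Sgk1 (chr10:21993640-21993889, plus strand) and 66 bases around the match before the second listed start site of Tsc22d3 (chrX:140600672-140600737, minus strand), with matches to the half-site and the palindrome in capitals.
Sgk1: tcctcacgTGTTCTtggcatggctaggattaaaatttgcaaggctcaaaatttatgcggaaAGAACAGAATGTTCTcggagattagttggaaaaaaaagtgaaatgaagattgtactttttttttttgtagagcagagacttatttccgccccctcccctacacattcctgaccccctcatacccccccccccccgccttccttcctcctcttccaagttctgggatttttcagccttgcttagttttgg
Tsc22d3: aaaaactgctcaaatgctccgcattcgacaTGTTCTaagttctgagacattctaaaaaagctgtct
The Sgk1 palindrome lay at chr10:21993701-21993715, with its first base 189 bases before that start site and 965 bases before the next listed one. The Tsc22d3 half-site began 185 bases before its start site. A match describes the letters in a window, and binding was not measured here. The counts are per gene and do not show which of the 6 Sgk1 start sites was used. The part of the match in the rise of Sgk1 was not tested. Nr3c1 and Zbtb16 had no entry.

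I/R was compared with sham to find which of these genes changed with ischemia and reperfusion. Levels are given as CPM, each count set against the total of its library after TMM scaling (trimmed mean of M-values), and a gene was called at a Benjamini-Hochberg adjusted p under 0.05 in edgeR's quasi-likelihood test with a fold change over 1.2. Pdk4, Sgk1 and Plin4 were called higher in I/R, Nr3c1 and Nr3c2 were called lower, and 5 genes were not called. These 5 called genes were also the ones whose I/R and sham libraries did not overlap. Of 18569 genes tested, 41.8% were called, 21.8% higher and 19.9% lower, and 57.4% had groups that did not overlap, so that 5 called and 5 not overlapping of 10 was a share near that of all genes. The median log2 fold change of I/R over sham (log2 change) was -0.14 over the 10 genes and 0.03 over all tested genes. Scaled by library size only these medians were 0.11 and 0.28. The 10 genes had between 389 and 8662 counts in a library.

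**Figure D1:**
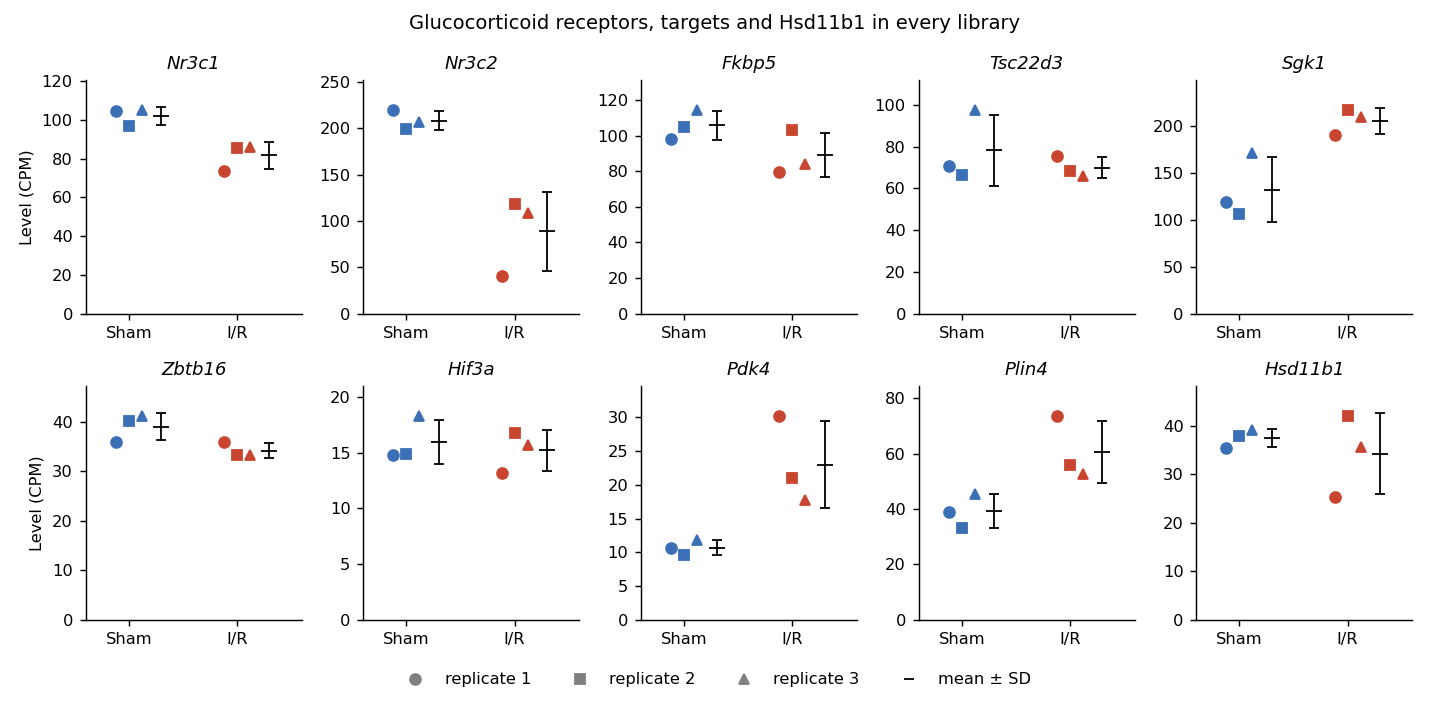
Level of each of the 10 genes in CPM (y axis, starting at 0) in the 3 sham libraries (blue) and the 3 I/R libraries (red), with the mean and SD beside the points. The groups are apart for Nr3c1, Nr3c2, Sgk1, Pdk4 and Plin4 and overlap for the other 5 genes. Sham replicate 3 (triangle) is the highest sham library in 9 of the 10 panels, in that of Nr3c1 by little.

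Both receptor genes were lower in I/R, and Nr3c2 by more. Nr3c1, on chromosome 18, encodes the glucocorticoid receptor. Its level was 73.8, 85.7 and 85.8 CPM in I/R replicates 1, 2 and 3 and 105, 96.7 and 105 CPM in the sham replicates. Every I/R library was below every sham library. The level averaged 81.8 ± 6.94 CPM in I/R against 102 ± 4.75 CPM in sham (SD, 3 libraries each), and the log2 change was -0.32 (SE 0.09, edgeR adjusted p = 0.0233), or 1.25-fold lower. When libraries were scaled by their size only, where the median of all tested genes was 0.28 instead of 0.03, the log2 change of Nr3c1 was -0.07 (SE 0.08, edgeR adjusted p = 0.499) and the call was lost. Relative to that median it was -0.35. The call was also lost without sham replicate 1 (-0.31, edgeR adjusted p = 0.0828), without sham replicate 3 (-0.31, edgeR adjusted p = 0.0884) and without I/R replicate 1, where -0.26 was under the fold limit.

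Nr3c2 (chr8:74462166-74814890 on the BALB/cJ assembly of the count table) encodes the mineralocorticoid receptor. It was at 40.2, 118 and 109 CPM in the I/R libraries and 219.7, 199 and 206 CPM in the sham libraries. The 3 sham libraries were close together, while I/R replicate 1 was far below the other I/R libraries. The level averaged 88.9 ± 42.4 CPM in I/R against 208 ± 10.5 CPM in sham, with a log2 change of -1.23 (SE 0.34, edgeR adjusted p = 0.0223), or 2.34-fold lower. Without I/R replicate 1 the log2 change was -0.88 (edgeR adjusted p = 1.32e-07), and without any one of the sham libraries it was -1.27 to -1.20 and not called, with the edgeR adjusted p between 0.0585 and 0.0640.

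The balance of the receptors was taken within each library, where scaling cancels out. Counts of Nr3c2 were 2.10, 2.06 and 1.97 times those of Nr3c1 in the sham libraries. They were 0.546, 1.38 and 1.26 times those of Nr3c1 in I/R replicates 1, 2 and 3. Thus Nr3c2 had the more counts in all 3 sham libraries and in I/R replicates 2 and 3, and Nr3c1 had the more in I/R replicate 1. Per length, with the transcript lengths of the count table, the ratio was 2.11 to 2.25 in sham and 0.586 to 1.48 in I/R. The mean log2 ratio of counts was -0.02 ± 0.74 in I/R and 1.03 ± 0.05 in sham, a difference of -1.05 (SE 0.43, n = 3 each). The exact two-sided permutation p was 0.1, the smallest that 3 against 3 libraries can give, so that this design could not pass 0.05. Leaving out each library in turn gave differences of -1.30 to -0.63, the last without I/R replicate 1.

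**Figure D2:**
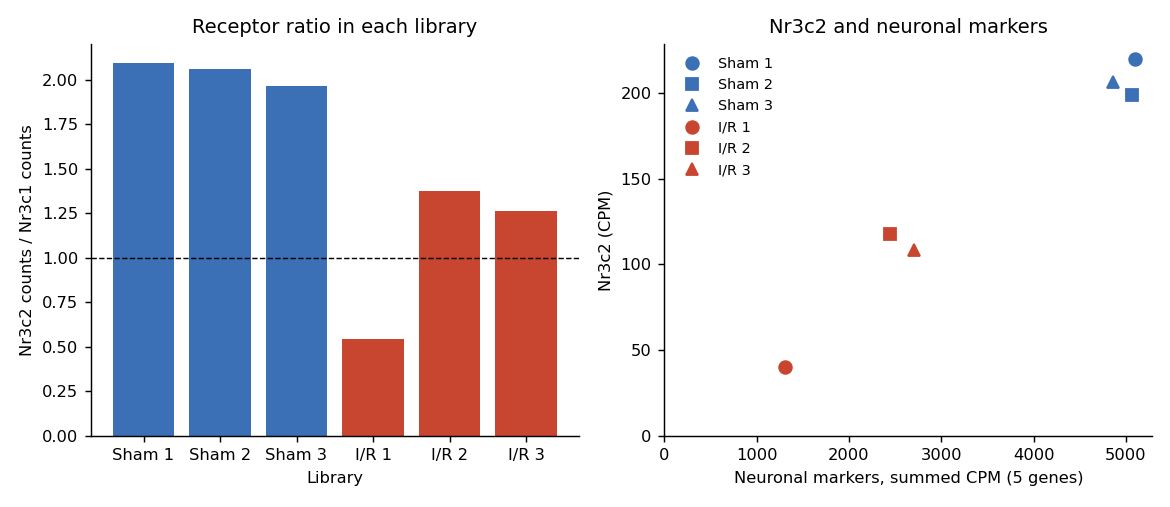
Left, Nr3c2 counts divided by Nr3c1 counts in each library, with a dashed line at equal counts; right, Nr3c2 in CPM against the summed CPM of 5 neuronal marker genes in the 6 libraries. The 3 sham libraries lie between 1.97 and 2.10 on the left, and I/R replicate 1 has both the lowest ratio (0.546) and the lowest neuronal sum (1302 CPM).

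Neuronal markers were lower in I/R, as Nr3c2 was. I/R replicate 1 was the lowest library for both, while I/R replicate 2 was above I/R replicate 3 for Nr3c2 and below it for the markers. The 5 markers Rbfox3, Tubb3, Snap25, Syt1 and Nefl were all called lower, with log2 changes from -1.30 to -0.75. Their summed level was 1302, 2446 and 2708 CPM in I/R replicates 1, 2 and 3 and 4864 to 5098 CPM in sham. Of the markers of dentate granule cells 6 of 6 were called lower, and of those of CA1 pyramidal cells 5 of 6. Both lists, which mark the labelled tissue, were present in all libraries, with dentate sums of 138 to 274 CPM in I/R and 509.8 to 557 CPM in sham. Of 6 astrocyte markers 2 were called higher and 4 lower, and of 6 microglia markers 3 were called higher and 2 lower. Scaled by library size only, 4 CA1 markers were called lower and 2 astrocyte markers higher and 2 lower. Microglia markers then had 4 called higher and 2 lower. The part of these cell types in the receptor results was not tested, and in bulk RNA fewer cells of a type and less RNA per cell cannot be told apart. The genes with the level pattern nearest to Nr3c2 over the 6 libraries (Euclidean distance of mean-centred log2 CPM among 16192 named genes) were Creg2 at 0.107, Hs3st4 at 0.176 and Rbfox1, a neuronal splicing regulator, at 0.180. Those nearest to Nr3c1 were Secisbp2l at 0.0543, Etnk1 at 0.0777 and Ash1l at 0.0777. All 6 were called lower in I/R, which follows from how they were picked, since the distance includes the difference between the groups.

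Hsd11b1 (chr1:192766050-192810585) encodes the enzyme that regenerates active corticosterone inside the cell. It was at 25.3, 42.0 and 35.6 CPM in I/R and 35.5, 37.8 and 39.2 CPM in sham. I/R replicate 1 was the lowest of all libraries and I/R replicate 2 the highest, so the groups overlapped. The log2 change was -0.13 (SE 0.17, 95% interval -0.53 to 0.27, edgeR adjusted p = 0.579). H6pd, which makes the cofactor that Hsd11b1 needs in the endoplasmic reticulum, was higher in every I/R library, at 32.0, 22.6 and 17.2 CPM against 8.29, 11.5 and 10.3 CPM in sham, with a log2 change of 1.26 (SE 0.23, edgeR adjusted p = 0.00441).

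Fkbp5 (chr17:27150808-27272573) encodes an Hsp90 co-chaperone that lowers the receptor's affinity for hormone and is itself a target of the receptor. It was at 79.7, 103 and 84.3 CPM in I/R and 98.2, 105 and 114 CPM in sham. I/R replicate 2 lay within the sham range and the other I/R libraries below it. The log2 change was -0.25 (SE 0.12, 95% interval -0.52 to 0.02, edgeR adjusted p = 0.12), and without I/R replicate 2 it was -0.39 and called (edgeR adjusted p = 0.0309). Scaled by library size only it was 0.00, so that no direction is given for Fkbp5.

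Among the induced targets, Sgk1, Pdk4 and Plin4 rose. Sgk1 (chr10:19010510-19129906), the serum- and glucocorticoid-regulated kinase that acts on sodium channels and transporters, was at 189.8, 217 and 209.6 CPM in I/R and 118, 106 and 171 CPM in sham. The I/R libraries lay close together, and sham replicate 3 was nearer to them than to the other sham libraries. The level averaged 205 ± 13.9 CPM in I/R against 132 ± 34.7 CPM in sham, with a log2 change of 0.64 (SE 0.17, edgeR adjusted p = 0.0208), or 1.56-fold. Without sham replicate 3 it was 0.86 (edgeR adjusted p = 0.00743), and without any one of the other 5 libraries it was 0.50 to 0.69 and not called (edgeR adjusted p 0.0532 to 0.127).

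Pdk4 (chr6:2216547-2229983) encodes a kinase that shuts off pyruvate dehydrogenase and so turns cells from glucose towards fat as fuel. It was at 30.1, 21 and 17.7 CPM in I/R and 10.7, 9.57 and 11.9 CPM in sham. Every I/R library was above the highest sham library, and I/R replicate 1 was highest. The level averaged 23.0 ± 6.45 CPM against 10.7 ± 1.16 CPM, a log2 change of 1.10 (SE 0.20, edgeR adjusted p = 0.00423), or 2.15-fold. Pdk4 kept its call under all 18 alternatives in which it was fitted, with log2 changes of 0.85 to 1.37. Its relatives Pdk1, Pdk2 and Pdk3 were called lower, with log2 changes of -0.54, -0.95 and -0.54. The calls of Pdk1 and Pdk3 were lost with scaling by library size only, and Pdk2 was at 50.7, 76.0 and 74.9 CPM in I/R against 129 to 131 CPM in sham.

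Plin4 (chr17:56015219-56023243) encodes a perilipin, a coat protein of lipid droplets. It was at 73.5, 56.0 and 52.5 CPM in I/R and 38.9, 33.3 and 45.4 CPM in sham, again without overlap and with I/R replicate 1 highest. The log2 change was 0.63 (SE 0.16, edgeR adjusted p = 0.0152), or 1.55-fold. Plin4 shares part of its span with Hdgfrp2 on the other strand, a gene with up to 4267 counts, and whether strand was used in the counting is not stated, so its counts are uncertain. Without sham replicate 1 or 2 the log2 change was 0.62 or 0.52 and not called (edgeR adjusted p = 0.0545 and 0.0661). Another lipid droplet coat gene, Plin2, had the largest log2 change of the relatives listed, 4.12 (SE 0.37, edgeR adjusted p = 0.000375), with 141.6, 61.3 and 59.4 CPM in I/R against 4.48 to 5.37 CPM in sham.

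I/R replicate 1, the highest library for Pdk4 and Plin4, also had the most RNA of endothelial and blood cell markers. It was the highest I/R library for 41.8% of all tested genes. Microglia markers were highest there too, with sums of 323, 232 and 265 CPM in I/R and 219 to 249 CPM in sham. Of 5 tested endothelial markers 4 were called higher and 1 lower, and their summed level was 420.2, 345 and 295 CPM in I/R and 229 to 233 CPM in sham. Of 5 tested neutrophil markers 4 were called higher, with sums of 38.4, 9.60 and 9.97 CPM in I/R and 4.12 to 5.71 CPM in sham. Of 5 tested monocyte and macrophage markers 4 were called higher, with sums of 53.6, 28.3 and 32.8 CPM in I/R and 10.3 to 13.2 CPM in sham. Pericyte markers, also of vessels, did not show this order between groups, with sums of 180.1, 179 and 165 CPM in I/R and 183 to 197 CPM in sham. Of 5 pericyte markers 2 were called higher and 2 lower, and 3 higher and 0 lower with scaling by library size only. The part of these cells in the rise of Pdk4 and Plin4 was not tested. Without I/R replicate 1, Pdk4 and Plin4 had log2 changes of 0.85 and 0.47 and were called.

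**Figure D3:**
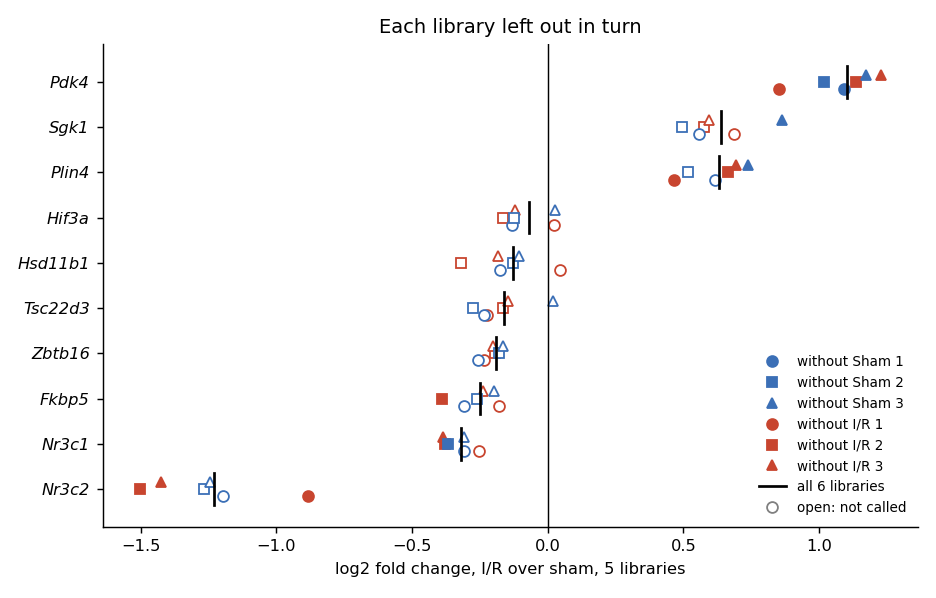
Log2 fold change of I/R over sham (x axis) for each of the 10 genes when 1 library was left out, by colour and marker of that library. Filled markers are calls and open markers are not, and the vertical bars give the value with all 6 libraries. Pdk4 is called in all 6 fits, from 0.85 to 1.23, and Sgk1 only without sham replicate 3.

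Tsc22d3, Zbtb16 and Hif3a were not called. Tsc22d3 (chrX:135781276-135842512), also known as GILZ, a mediator of anti-inflammatory glucocorticoid action, was at 75.5, 68.4 and 66.0 CPM in I/R and 70.9, 66.2 and 97.5 CPM in sham. Apart from sham replicate 3 the 5 libraries lay between 66.0 and 75.5 CPM. The log2 change was -0.16 (SE 0.15, 95% interval -0.50 to 0.18, edgeR adjusted p = 0.419), and without sham replicate 3 it was 0.02. Its relatives Tsc22d2 and Tsc22d4 were called higher, with log2 changes of 0.69 and 0.46, and Tsc22d1 was not called.

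Zbtb16 (chr9:45757644-45940421), the zinc finger transcription factor PLZF, was at 35.9, 33.3 and 33.2 CPM in I/R and 35.9, 40.1 and 41.1 CPM in sham. I/R replicate 1 and sham replicate 1 met at the same level and the other I/R libraries were below the sham libraries. The log2 change was -0.19 (SE 0.09, 95% interval -0.41 to 0.02, edgeR adjusted p = 0.134). Hif3a (chr7:14625617-14659257), a hypoxia-inducible factor subunit that can restrain the other subunits, was at 13.2, 16.8 and 15.7 CPM in I/R and 14.7, 14.9 and 18.2 CPM in sham. The groups overlapped, with a log2 change of -0.07 (SE 0.14, 95% interval -0.40 to 0.26, edgeR adjusted p = 0.726). Its relative Hif1a was called higher at 0.44. Scaled by library size only, Tsc22d3, Zbtb16, Hif3a and Hsd11b1 had log2 changes of 0.10, 0.07, 0.18 and 0.12, so no direction is given for them.

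**Figure D4:**
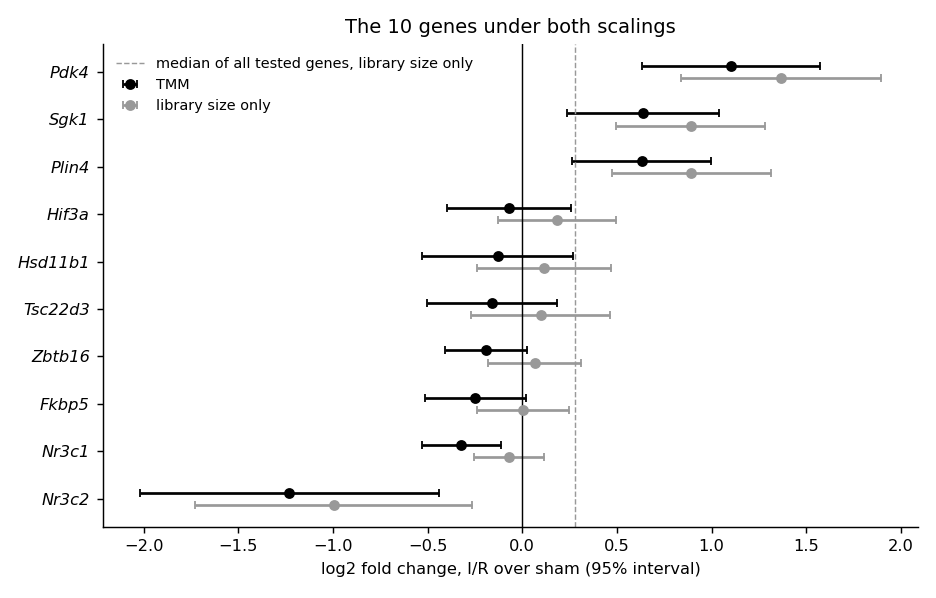
Log2 fold change of I/R over sham with its 95% interval for the 10 genes, after TMM scaling (black) and after scaling by library size only (grey), with the median of all tested genes under the second scaling (0.28) as a dashed line. Pdk4, Sgk1 and Plin4 are above 0 and Nr3c2 below 0 under both scalings, and the interval of Nr3c1 includes 0 under the second.

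Sham replicate 3 stood apart among the sham libraries for these genes. It was the highest sham library for 9 of the 10 genes, all but Nr3c2, though for Nr3c1 only at 105.0 against 104.8 CPM in sham replicate 1. Sham replicate 3 was also the highest for 20 of 24 other glucocorticoid-induced genes (83.3%), compared to 28.5% of all tested genes. Relative to the mean of the other sham libraries, its log2 level had a median of 0.20 over the 10 genes and 0.18 over the 24 genes, against -0.01 over all genes. The largest of these values among the 10 genes were 0.61 for Sgk1, 0.51 for Tsc22d3 and 0.33 for Plin4. The smallest were -0.02 for Nr3c2, 0.06 for Nr3c1 and 0.10 for Hsd11b1. This pattern was noticed after the values were seen, and it is given without a test. Sham replicate 3 also had the most choroid plexus RNA, a summed level of 4420 CPM over 7 markers against 36.7 and 2681 CPM in sham replicates 1 and 2. In the I/R libraries these markers summed to 1598, 3616 and 33.7 CPM, and 0 of the 7 were called in either direction by edgeR (0 also had an unadjusted p under 0.05). Sham replicate 2 had such RNA too and was the highest sham library for 0 of the 10 genes. Oligodendrocyte markers were also highest in sham replicate 3, at 7506 CPM over 6 markers against 6710 and 6050 CPM, and of these markers 0 were called higher and 3 lower in I/R by edgeR with TMM, and 1 higher and 0 lower with scaling by library size only. The part of either cell type in the pattern was not tested. With the choroid plexus level as a covariate the same 5 genes kept their calls, and in the 4 libraries that had choroid plexus RNA only Pdk4 and Plin4 did. In those 4 libraries, 2 against 2, the log2 changes of the genes that lost the call were -0.35 for Nr3c1, -1.37 for Nr3c2 and 0.54 for Sgk1, close to or larger than those with 6 libraries for the receptors and smaller for Sgk1.

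Levels between genes were compared as CPM per kilobase of transcript length. In sham, Sgk1 was highest at 42.6 ± 11.2, followed by Nr3c2 at 35.2 ± 1.77, Fkbp5 at 27.4 ± 2.09 and Tsc22d3 at 27.2 ± 5.87 (SD, n = 3). Then came Hsd11b1 at 18.9 ± 0.96, Zbtb16 at 16.8 ± 1.17 and Nr3c1 at 16.1 ± 0.75, and last Plin4 at 7.59 ± 1.17, Pdk4 at 3.08 ± 0.33 and Hif3a at 2.50 ± 0.31. The library ranges of Sgk1 and Nr3c2, of Nr3c2 and Tsc22d3, of Fkbp5 and Tsc22d3, of Zbtb16 and Nr3c1, and of Pdk4 and Hif3a overlapped, so those neighbours cannot be put in order. In I/R the order was Sgk1 at 66.3 ± 4.49, Tsc22d3 at 24.3 ± 1.73, Fkbp5 at 23.1 ± 3.21, Hsd11b1 at 17.3 ± 4.24 and then Nr3c2 at 15 ± 7.17, against the second place in sham. In I/R the library range of Nr3c2, 6.80 to 19.9, overlapped those of Hsd11b1, Zbtb16, Nr3c1, Plin4 and Pdk4, so its place there is not fixed, and the ranges of Tsc22d3 and Fkbp5 and of Fkbp5 and Hsd11b1 overlapped too. The deposited FPKM use another gene length and put Nr3c1 in the fifth place in sham and Nr3c2 in the second in sham and the fourth in I/R, so the order depends on which transcript length is meant.

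The rest of the pathway was examined in lists of 83 distinct genes, of which 76 were tested, 29 were called higher, 25 lower and 22 not, beside 21.8% higher and 19.9% lower over all tested genes. Of the 10 chaperones and co-chaperones of the receptor complex, 5 rose and 0 fell, with a median log2 change of 0.32. Hsp90aa1, the inducible Hsp90, was at 2232, 2713 and 2334 CPM in I/R and 1112 to 1151 CPM in sham, a log2 change of 1.10 (SE 0.14, edgeR adjusted p = 0.00122). Dnajb1, an Hsp40 co-chaperone, rose by 0.84 (SE 0.11, edgeR adjusted p = 0.00125). Of 11 coregulators, which the DNA-bound receptor recruits, 1 rose and 4 fell. Crebbp, a histone acetyltransferase, had a log2 change of 0.33, and the corepressor Ncor1 and the coactivator Ppargc1a each had -0.59. The call of Ppargc1a was lost with scaling by library size only, and the median of the coregulators went from -0.25 to 0.01.

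Of 24 tested genes of the list of other glucocorticoid-induced genes, 15 rose and 7 fell (over all tested genes 21.8% and 19.9%), and the median log2 change was 0.68. The largest rises were those of Il1r2, a decoy receptor of interleukin-1, at 3.73 (SE 0.60, edgeR adjusted p = 0.00248), and of Cdkn1a, the cell cycle inhibitor p21, at 3.65 (SE 0.23, edgeR adjusted p = 0.000212). Reads of Il1r2 numbered 263, 90 and 99 in the I/R libraries and 19, 5 and 6 in the sham libraries. Il1r2 is also known to be induced by inflammatory signals and Cdkn1a by DNA damage. The deepest falls were those of Sult1a1, a sulfotransferase, at -1.09 and of Fam107a at -0.79, and both stayed called lower with scaling by library size only. Under that scaling 15 genes of the list were called higher and 3 lower.

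**Figure D5:**
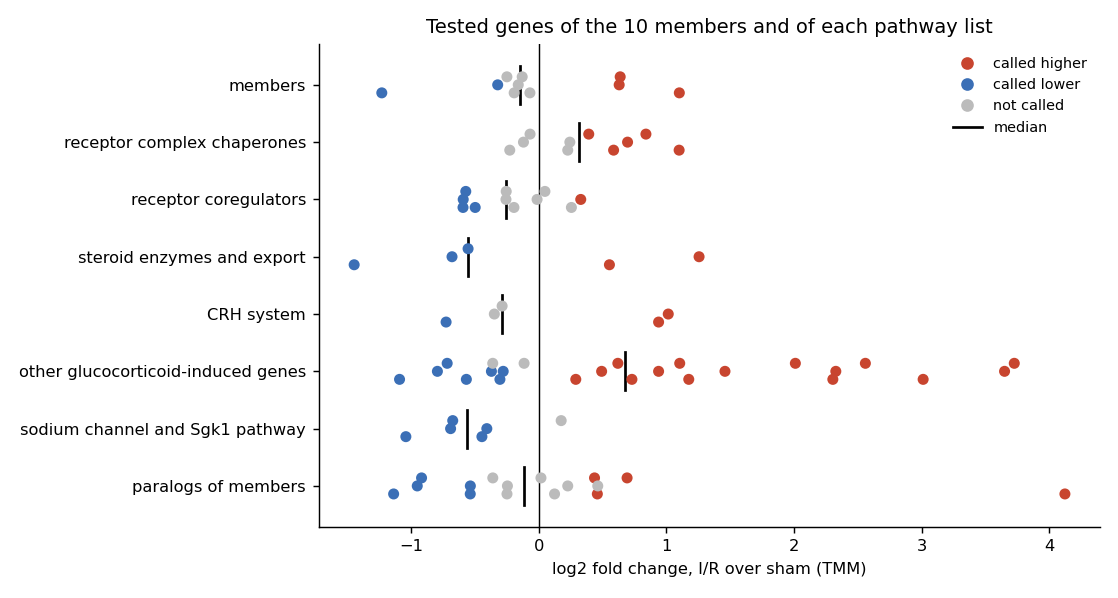
Log2 fold change of I/R over sham (x axis, TMM scaling) of each tested gene of the 10 genes (members) and of each pathway list, coloured by call, with the median of the list as a bar. Of the other glucocorticoid-induced genes 15 are called higher and 7 lower, and of the sodium channel and Sgk1 pathway 0 are called higher and 5 lower.

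Genes tied to Sgk1 were mostly lower in I/R. Of 6 tested genes of the epithelial sodium channel and Sgk1 pathway, 0 were called higher and 5 lower by edgeR (over all tested genes 21.8% and 19.9%), and Wnk1 had 0.18 (edgeR adjusted p = 0.340). Scnn1a, the alpha subunit of the channel, had a log2 change of -1.04 (SE 0.22, edgeR adjusted p = 0.00754) and Ndrg1, a substrate of the kinase, -0.69 (SE 0.12, edgeR adjusted p = 0.00301). With scaling by library size only 3 of the 6 were called lower. Scnn1b and Scnn1g, other genes of the channel on this list, did not pass the count filter and were not tested. Of 5 tested genes of steroid metabolism and export, H6pd and the transporter Abcc1 rose, and Akr1c14, Srd5a1 and Abcb1a, a drug efflux pump of the blood-brain barrier, fell. The calls of Akr1c14 and Srd5a1 were lost with scaling by library size only. Abcb1a was at 29.4, 26.6 and 30.6 CPM in I/R and 45.6, 43.7 and 49.4 CPM in sham, a log2 change of -0.68 (SE 0.10, edgeR adjusted p = 0.00166). Hsd11b2, which inactivates corticosterone, had at most 0.325 CPM in a library and was not tested.

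Of 5 tested genes of the corticotropin-releasing hormone system, 2 rose and 1 fell (over all tested genes 21.8% and 19.9%). Crh, the hormone gene, was at 4.15, 3.85 and 2.65 CPM in I/R and 1.59, 1.6 and 2.09 CPM in sham, with a log2 change of 1.01 (SE 0.26, edgeR adjusted p = 0.0151). Its receptor Crhr1 was at 6.17, 6.78 and 4.75 CPM in I/R and 9.78, 10.9 and 8.54 CPM in sham, with a log2 change of -0.73 (SE 0.18, edgeR adjusted p = 0.0149), and this call was lost with scaling by library size only. Pomc, the precursor of corticotropin, had a log2 change of 0.94 (SE 0.27, edgeR adjusted p = 0.0246) at no more than 5.34 CPM. Among 16 tested relatives of the 10 genes, 4 rose, 5 fell and 7 were not called, beside the same shares over all tested genes. The 7 were Tsc22d1, Epas1, Plin3, Plin5, Sgk2, Sgk3 and Fkbp4. Pgr, the progesterone receptor gene, was among those that fell, with a log2 change of -0.92.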

How the data were processed

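RNA-seq libraries of pooled mouse hippocampi (3 I/R, 3 sham, grouped by sample title) were used as deposited. Per the study's methods, the authors aligned reads with TopHat 2 to an Ensembl genome and took read numbers per gene from HTSeq. The submitters' processing notes list Bowtie 0.12.2 and mm8, whereas 40303 of the 41386 gene identifiers in the table are those of BALB/cJ. Reads of C57BL/6 mice (C57BL/6J in the study's methods) were thus counted on another strain's annotation, and count coordinates are on BALB/cJ. The deposited counts are raw whole numbers. The deposited FPKM were computed by the authors from those counts, with a gene length other than the length column of the table, and served only in alternatives. Columns with the authors' own fold changes and p-values were not used. Of the table's lines, 4 had been split and were rejoined. Genes without a name had 4.24% to 4.74% of the counts and stayed in the fit.

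The test was that of edgeR 4.0.16 under R 4.3.3 (filterByExpr, TMM, robust glmQLFit, glmQLFTest, no covariate), with Benjamini-Hochberg adjustment over all 18569 tested genes. SE was the log2 fold change divided by the square root of F, and intervals are 95%. The script was tested on simulated data. The ratio of the receptors was tested with an exact two-sided permutation test. Replicates are separate samples per the labels, and p-values measure the spread between these pools. All 10 genes were named whatever they showed. Of each pathway list the called genes with the largest changes were to be named, at most 2 in each direction. Others that are named were chosen after their values were seen. They are the remaining Pdk, Tsc22d, Hif, Plin and Sgk relatives, Fkbp4, Pgr, Srd5a1, Wnk1, Scnn1b, Scnn1g and Hsd11b2. The genes and lists were chosen with earlier results of these data known. Listed genes that had no matching name (Hspa8, Cebpd, Ly6c1, Ly6c2) were not analysed here, 1 gene of the list of relatives is not reported here, and Cavin2 was matched by its older name Sdpr. Of the 50-base stretches of the transcripts of the 10 genes, at most 1.40% (Pdk4) were shared with another gene. Alternatives were other scalings (DESeq2 1.42.0 size factors, upper quartile, library size only), no count filter or at least 10 counts in every library, DESeq2, limma-voom, limma 3.58.1 on log2(FPKM + 1) and log2(FPKM + 0.1), a replicate block, a choroid plexus covariate, the 4 libraries with choroid plexus RNA, a fold change over 2, and leaving out each library.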

Additional observations from a re-analysis of the deposited data

How the results depend on the processing

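Of the 10 genes 3 were called higher and 2 lower, and of the pathway genes 29 higher and 25 lower. The number of the 10 called lower was 1 with scaling by library size only, without a count filter, with log2(FPKM + 1) or log2(FPKM + 0.1), with the replicate block and at a fold change over 2, and 0 in the 4 libraries with choroid plexus RNA. At a fold change over 2, 1 of the 10 was called higher, 14 pathway genes were called higher and 4 lower, and 2760 of all genes were called. Pathway genes called lower numbered 12 with library size only and with both FPKM fits, and 13 in the 4 libraries. With one library left out, the 10 genes gave 1 to 3 called higher and 0 to 3 lower, the pathway genes 22 to 29 higher and 15 to 26 lower, all genes 5330 to 7976 calls, and the log2 receptor ratio differed by -1.30 to -0.63. The lowest number of the 10 called higher, 1, came without sham replicate 1 or 2, and of those called lower, 0, without sham replicate 1 or 3. The share of higher calls among all genes was 52.3% with TMM, 75.7% with library size only and 75.0% and 75.5% with the FPKM fits. Of the 10 genes, the 5 without a call changed sign. With library size only the log2 fold changes were 0.0024 for Fkbp5, 0.10 for Tsc22d3, 0.065 for Zbtb16, 0.18 for Hif3a and 0.12 for Hsd11b1. With log2(FPKM + 1) they were 0.11 for Tsc22d3, 0.060 for Zbtb16, 0.16 for Hif3a and 0.093 for Hsd11b1, and with log2(FPKM + 0.1) 0.11, 0.063, 0.18 and 0.095. With one library left out they ranged from -0.27 to 0.020 for Tsc22d3 (above 0 without sham replicate 3), from -0.16 to 0.028 for Hif3a (above 0 without I/R replicate 1 or sham replicate 3) and from -0.32 to 0.045 for Hsd11b1 (above 0 without I/R replicate 1). The cause of these changes was not tested, except that library size only and FPKM leave out the TMM factors. Over 18 alternatives Nr3c1 lost its call in 8 (edgeR, DESeq2 or limma adjusted p 0.00654 to 0.522), Sgk1 in 6 (0.00412 to 0.141), Nr3c2 in 5 (1.32e-07 to 0.127), Plin4 in 2 (0.00287 to 0.0661) and Pdk4 in 0 (6.16e-06 to 0.0270). The sample titles number the replicates without naming a pairing, and same-numbered libraries did not deviate together (r of -0.10, 0.06 and -0.18 over genes). The highest r, 0.27, was that of I/R replicate 3 and sham replicate 1, the libraries with the least choroid plexus RNA. With 3 pools per group these values cannot exclude a pairing or a shared batch. With the replicate block, 6332 of all genes were called, the 10 genes gave 3 higher and 1 lower, the pathway genes 26 higher and 20 lower, Nr3c1 was not called (-0.32, edgeR adjusted p = 0.0620), and the receptor ratio difference was -1.05. With 3 pools per group, the 95% intervals of the 5 genes without a call reached -0.53 and 0.27 on the log2 scale.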
